A study of Mus musculus with 7 samples.

Results

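The genes described here are 9 genes of the proneural and neuroblast program: Neurog2, Neurod1, Insm1, Eomes, Prox1, Sox4, Sox11, Dcx and Tubb3. They were picked by symbol from a deposited table of 24346 genes, all 9 were present, and 7 of them passed a filter on low values. The table holds primary neurospheres grown for 8 days from the hippocampus of single mice, with 3 libraries of Med23 CKO mice (KO_117, KO_214, KO_218) and 4 of control mice (WT_215, WT_116, WT_213, WT_220). The mice were 2-month-old C57/BL6. The Med23 CKO mice were Nestin-CreER:Med23 flox/flox, in which the nestin promoter drives a tamoxifen-activated Cre that removes exons 5 to 7 of Med23, a subunit of the Mediator complex. The controls are labelled wild type, and per the study's methods they were littermates with Med23 flox/+ or Med23 flox/flox and no Cre. Tamoxifen was gavaged to mice of both groups (200 mg/kg, once a day over 5 days), at the age of 2 months per the labels and of 1 month for cultures per the methods. Cells that never expressed nestin keep Med23 in either group. The comparison asked whether genes of early neuronal commitment differed in neurospheres from Med23 CKO mice.

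In the adult dentate gyrus, radial neural stem cells give rise to intermediate progenitors, neuroblasts and then granule neurons. Proneural factors of the basic helix-loop-helix (bHLH) family start this path. They pair with E proteins, bind E-boxes (the letters CANNTG) and switch on further factors such as Eomes and Neurod1. SoxC factors then act with cytoskeletal genes such as Dcx and Tubb3 as the cell leaves the cycle and extends processes. Neurospheres grown with EGF and FGF hold mostly cycling progenitors, so genes of committed cells are often low in them.

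The 4 promoters printed here belong to factors whose levels were ordered in opposite ways over the libraries, as described further on, with Neurog2 and Neurod1 on one side and Sox11 and Sox4 on the other. They are from RefSeq on GRCm38 (mm10), run 5′ to 3′ on the strand of the gene, and end before the outermost annotated start. Capitals mark E-boxes.
Neurog2, chr3:127632886-127633134, + strand: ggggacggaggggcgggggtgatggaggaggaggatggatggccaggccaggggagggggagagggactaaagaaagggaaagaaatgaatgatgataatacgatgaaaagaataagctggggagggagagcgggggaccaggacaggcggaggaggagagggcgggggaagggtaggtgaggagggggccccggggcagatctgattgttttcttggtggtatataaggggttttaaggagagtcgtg
Neurod1, chr2:79456752-79456886, - strand: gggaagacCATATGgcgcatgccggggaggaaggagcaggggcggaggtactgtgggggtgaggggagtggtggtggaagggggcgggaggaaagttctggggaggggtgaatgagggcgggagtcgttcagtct
Sox11, chr12:27342719-27342968, - strand: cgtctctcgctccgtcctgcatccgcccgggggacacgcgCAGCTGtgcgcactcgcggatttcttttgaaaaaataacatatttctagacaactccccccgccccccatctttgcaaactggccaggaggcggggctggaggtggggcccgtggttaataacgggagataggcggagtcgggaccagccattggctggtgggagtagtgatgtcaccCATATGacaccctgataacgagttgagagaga
Sox4, chr13:28953714-28953949, - strand: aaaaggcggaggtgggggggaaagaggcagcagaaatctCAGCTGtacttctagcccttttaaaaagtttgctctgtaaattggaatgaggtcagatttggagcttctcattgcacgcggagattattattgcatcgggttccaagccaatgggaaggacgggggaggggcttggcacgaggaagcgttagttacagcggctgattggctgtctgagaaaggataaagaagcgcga
In these stretches, Sox11 held 2 E-boxes (CAGCTG and CATATG), Sox4 held 1 (CAGCTG), Neurod1 held 1 (CATATG) and Neurog2 held 0. Their lengths differ (250 bases for Sox11, 236 for Sox4, 135 for Neurod1 and 249 for Neurog2), so these counts are not on equal terms. Searched over the 250 bases before each RefSeq start and on both strands, 4 of the 8 genes with a window had an E-box, and 66.2% of all 32851 promoter windows had one. The form CAGCTG, one of the E-boxes just counted, was in 13% of all windows. The ETS core CCGGAA was in 0 of the 8 genes and in 12% of windows, and CCAAT was in 5 of the 8 and in 33.8%. Sox4 had 4 copies of CCAAT and Sox11 had 1. A short SOX core (ACAAT) was found before Neurog2 (1) and Tubb3 (3), and in 27.7% of all windows. These are matches of letters and not measured binding.

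The gene models differ in a way the choice of genes did not use. In GENCODE M21, Sox11 (chromosome 12, 27334264 to 27342574), Sox4 (chromosome 13, 28948919 to 28953713) and Insm1 (chromosome 2, 146221921 to 146225020) have a single exon each. Neurog2 (chromosome 3, 127633135 to 127635631) and Neurod1 (chromosome 2, 79452521 to 79456751) have 2 exons, with the coding sequence in 1 of them. Prox1 (chromosome 1, 190118035 to 190170714) and Dcx (chromosome X, 143855842 to 143933311) have 5 and 7 exons in their longest transcripts with a consensus coding sequence. Tubb3 (chromosome 8, 123411424 to 123422015) has 4, and Eomes (chromosome 9, 118478212 to 118486132) has 6. Another annotated gene overlapped 5 of the 9 genes (Neurod1, Eomes, Tubb3, Prox1 and Sox4), including Prox1os, antisense to Prox1, and Cerkl, which spans Neurod1 on the same strand. The library kit does not mark strand, so reads of an antisense partner cannot be told from those of the gene.

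Values are FPKM (fragment counts scaled to transcript length and library size) as calculated by the authors with Cuffdiff. The methods do not state how libraries were scaled to each other. Differences are on the log2(FPKM + 1) scale, on which a change of a low gene looks smaller than it is. Values are listed in the order WT_215, WT_116, WT_213, WT_220 for control and KO_117, KO_214, KO_218 for Med23 CKO. Between 16841 and 18113 genes had a value above 0 in a library, and the depth of the libraries is unknown. Med23 had 11.4, 10.3, 12.9 and 10.1 FPKM in control, against 9.97, 9.27 and 8.12 FPKM in Med23 CKO, counted over the whole gene, of which exons 5 to 7 are a part. The groups did not overlap for Med23 (log2 difference -0.26, standard error 0.18, exact permutation p = 0.0571). Progenitor markers were present throughout, with Nes between 61.1 and 240.5 FPKM and Sox2 between 69.4 and 194 FPKM over the 7 libraries. The cultures also held markers of other cells. The 8 oligodendrocyte lineage markers summed to between 2235 and 4641 FPKM, including the myelin gene Mbp, and the 12 microglia and macrophage markers summed to 1090 FPKM in KO_214 and to between 31.8 and 233 FPKM in the other libraries.

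For none of the 9 genes was a difference between Med23 CKO and control neurospheres larger than the spread between libraries. Of the 7 tested by limma's moderated test across 14151 genes, 3 had a higher mean in Med23 CKO (Tubb3, Insm1 and Dcx) and 4 a lower mean (Sox11, Sox4, Neurod1 and Prox1), and 0 had an unadjusted p under 0.05, where 1.5% of all genes tested did (0.996% lower and 0.502% higher in Med23 CKO). At an adjusted p under 0.05, 0 of 14151 genes passed, and each of the 7 genes had an adjusted p of 1.0 after rounding. The median log2 difference of the 7 genes was -0.06, against -0.03 over all genes tested, of which 56.2% had a lower mean in Med23 CKO. Leaving out 1 library moved the median of the 7 genes from -0.21 (without WT_220) to 0.12 (without KO_214), so its sign was not stable, and over all 9 genes without the filter it was -0.03. For each of the 9 genes the control and Med23 CKO values overlapped, whereas the groups did not overlap for 2.32% of all genes tested. In RNA from whole neurospheres, fewer cells of a type and less RNA per cell cannot be told apart.

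**Figure D1:**
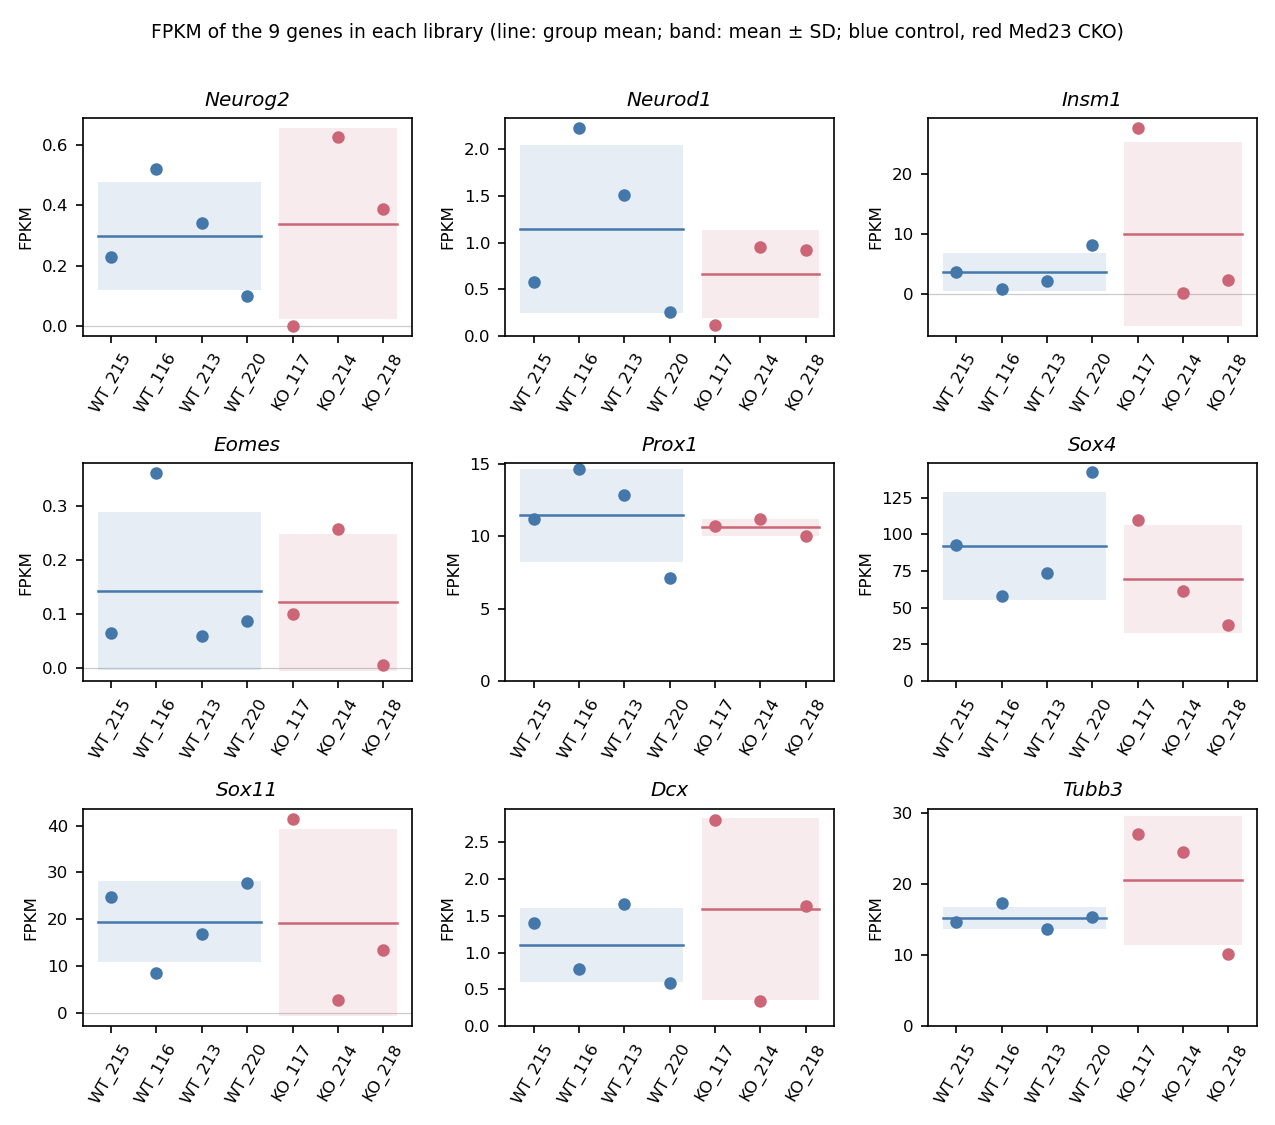
FPKM (y axis, linear) of the 9 genes in each of the 7 libraries (x axis), with control libraries in blue and Med23 CKO libraries in red. Lines are group means and bands the mean ± SD (n = 4 and n = 3). The Med23 CKO libraries spread widely for Insm1 (0.165 to 27.6 FPKM) and Sox11 (2.81 to 41.5 FPKM), and in each panel the groups overlap.

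The levels of the 9 genes covered a wide range. Sox4 was the highest in control, at 92.0 ± 36.8 FPKM (SD, n = 4), above 96.3% of all genes in the table. It exceeded Sox11, the next in order, in 7 of 7 libraries, and their control ranges did not overlap. Sox11 (19.5 ± 8.61 FPKM), Tubb3 (15.3 ± 1.55 FPKM) and Prox1 (11.5 ± 3.20 FPKM) followed, with overlapping control ranges between neighbours. Tubb3 nonetheless exceeded Prox1 in 7 of 7 libraries, while Sox11 exceeded Tubb3 in 5 of 7. Insm1 (3.75 ± 3.20 FPKM) stood next. Neurod1 (1.14 ± 0.901 FPKM) and Dcx (1.10 ± 0.507 FPKM) were close together, with Neurod1 the higher in 2 of 7 libraries. Neurog2 and Eomes were the lowest, with control means of 0.297 and 0.143 FPKM. Levels of the early commitment factors were near the bottom of the order, and those of the SoxC factors and Tubb3, which are expressed more widely, near its top.

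Neurog2, a bHLH factor that commits progenitors to the glutamatergic neuron fate, was below the filter (mean FPKM of at least 0.5) and was not tested across genes. It had 0.228, 0.520, 0.341 and 0.0975 FPKM in control, was listed at 0 in KO_117, and had 0.627 and 0.389 FPKM in KO_214 and KO_218. The Med23 CKO libraries thus held both the highest and the lowest of the 7 values (log2 difference 0.03, exact permutation test over 35 splits, two-sided, p = 0.914).

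Neurod1, a bHLH factor that acts after Neurog2 in neuroblasts and immature granule neurons, had 0.574, 2.23, 1.51 and 0.251 FPKM in control. In Med23 CKO it had 0.119, 0.955 and 0.918 FPKM. The lowest value was in a Med23 CKO library, but KO_214 and KO_218 lay above WT_215 and WT_220. The log2 difference was -0.31 (standard error 0.39, 95% interval -1.22 to 0.60, exact permutation p = 0.514), and it was -0.05 without KO_117.

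Insm1, a zinc-finger factor that helps progenitors leave the ventricular zone and become intermediate progenitors, varied most of the 7 tested genes. Its values were 3.64, 0.875, 2.26 and 8.24 FPKM in control, against 27.6, 0.165 and 2.34 FPKM in Med23 CKO. The highest and the lowest library were both Med23 CKO, 167-fold apart. The log2 difference was 0.26 (standard error 1.05, 95% interval -2.20 to 2.71, exact permutation p = 0.886), a standard error larger than that of 99.0% of all genes tested. It was -1.03 without KO_117 and 1.28 without KO_214, so that either library set its sign.

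Eomes (Tbr2), a T-box factor of intermediate progenitors, had 0.0651, 0.361, 0.0600 and 0.0875 FPKM in control, against 0.101, 0.258 and 0.00655 FPKM in Med23 CKO. It was below the filter, and the libraries WT_116 and KO_214 stood above the others (log2 difference -0.03, exact permutation p = 0.8). Prox1, a homeobox factor needed for granule neuron identity, varied least. It had 11.2, 14.7, 12.8 and 7.15 FPKM in control, against 10.7, 11.2 and 10.01 FPKM in Med23 CKO. Each Med23 CKO value lay within the control range. The log2 difference was -0.06 (standard error 0.25, 95% interval -0.64 to 0.52, exact permutation p = 0.857), which as a ratio of FPKM + 1 spans 0.640 to 1.44. Prox1 also marks lymphatic endothelium, whose 3 markers (Lyve1, Flt4 and Pdpn) summed to between 2.59 and 34.0 FPKM. Most of this sum was Pdpn (2.43 to 31.6 FPKM), and Lyve1 was at most 0.271 FPKM.

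Sox4 and Sox11 are SoxC factors that act downstream of proneural factors on neuronal genes, among them Tubb3 and Dcx. Sox4 had 93.0, 58.1, 74.0 and 143 FPKM in control, against 109.9, 61.1 and 37.9 FPKM in Med23 CKO. Only KO_218 lay below the control range. Its log2 difference was -0.45 (standard error 0.42, 95% interval -1.43 to 0.53, exact permutation p = 0.429), between -0.84 without KO_117 and -0.08 without KO_218. With array weights, which let limma give noisier libraries less weight, it was -0.90 with an unadjusted p under 0.05, where 6.27% of all genes were lower at that p.

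Sox11 had 24.8, 8.51, 16.9 and 27.7 FPKM in control, against 41.5, 2.81 and 13.3 FPKM in Med23 CKO. As with Insm1, the extremes were both Med23 CKO libraries, KO_117 above every control library and KO_214 below every one. The log2 difference was -0.51 (standard error 0.78, 95% interval -2.34 to 1.32, exact permutation p = 0.6). It was -1.35 without KO_117 and 0.39 without KO_214. Among the 5 mice whose number begins with 2 alone, a choice made after the data were seen, Sox11 (-1.68) and Sox4 (-1.03) were lower at an unadjusted p under 0.05, where 9.73% of all genes were.

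Dcx encodes doublecortin, a microtubule-associated protein of migrating neuroblasts. It had 1.39, 0.775, 1.66 and 0.582 FPKM in control, against 2.80, 0.336 and 1.64 FPKM in Med23 CKO. Here too KO_117 was the highest and KO_214 the lowest of the 7. Its log2 difference was 0.21 (standard error 0.39, 95% interval -0.69 to 1.11, exact permutation p = 0.657), or -0.13 without KO_117 and 0.62 without KO_214.

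Tubb3, the neuronal beta-tubulin recognised by the Tuj1 antibody, was nearly even over the control libraries, with 14.7, 17.4, 13.7 and 15.4 FPKM. Med23 CKO libraries had 27.0, 24.5 and 10.2 FPKM, so that KO_117 and KO_214 were above every control library and KO_218 below every one. The log2 difference was 0.30 (standard error 0.33, 95% interval -0.46 to 1.06, exact permutation p = 0.4). Without KO_218 it was 0.72 with an unadjusted p under 0.05 in limma, where 0.983% of all genes were higher at that p. Tubb3 thus did not follow Dcx, its companion marker of young neurons, which was lowest in KO_214.

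**Figure D2:**
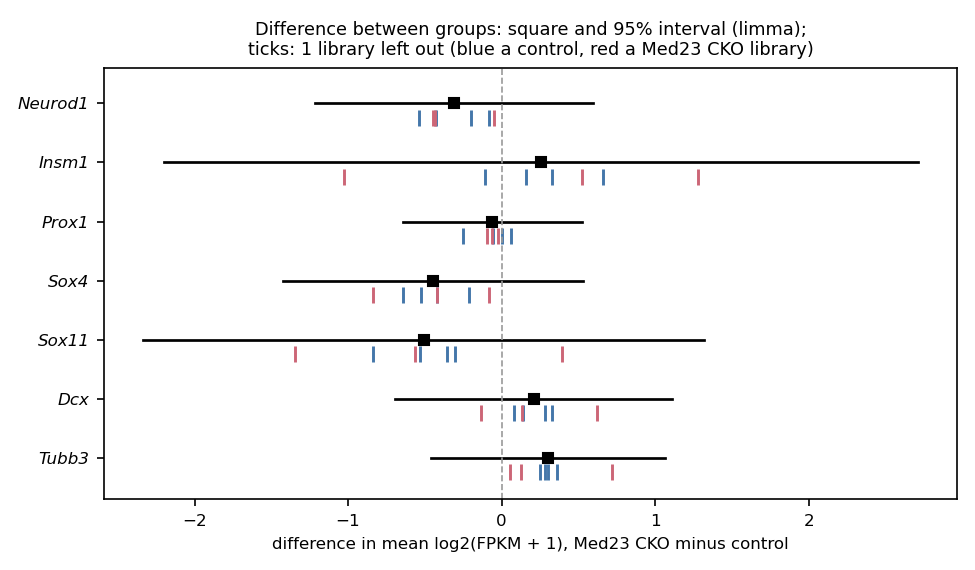
Difference in mean log2(FPKM + 1), Med23 CKO minus control (x axis), for the 7 genes tested (y axis). Squares with lines are limma estimates with 95% intervals, and ticks are the estimates with 1 library left out (blue for a control library, red for a Med23 CKO library). Each interval includes 0, and the red ticks of Insm1 run from -1.03 to 1.28.

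The 9 genes did not move as a block over the libraries. The 3 libraries with the highest summed FPKM of 8 cycling cell markers (Mki67, Top2a, Mcm2, Pcna, Cdk1, Ccnb1, Ccna2 and Birc5) were KO_117 (1207 FPKM), WT_215 (906 FPKM) and WT_220 (902 FPKM), and the other 4 libraries had between 229 and 626 FPKM. Sox11, Sox4 and Insm1 had their 3 highest values in exactly these libraries, and Neurod1 and Neurog2 had their 3 lowest values there. Of all 14151 genes tested, 26.1% had their 3 highest values in these libraries and 23.6% their 3 lowest, so either order was common. Dcx was high in KO_117 but not in WT_220. Prox1, Eomes and Tubb3 followed neither order. The split ran through both groups, with 2 control libraries and 1 Med23 CKO library among the 3.

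Markers of some cell types were ordered over the same libraries. Of the 8 neural stem cell and radial glia markers, 4 (Nes, Sox2, Hes5 and Fabp7) had their 3 highest values there. Gfap and Prom1 had their 3 lowest values there. The 3 libraries had the lowest values of 6 of 6 endothelial markers and of 9 of 11 microglia and macrophage markers tested, and of 3 of 6 mature neuron markers (Snap25, Slc17a7 and Camk2a). The other 3 (Rbfox3, Syt1 and Nefl) did not have their 3 lowest values there. Summed FPKM of the 6 mature neuron markers was 30.1, 23.9 and 13.9 FPKM in WT_215, WT_220 and KO_117, and 100.2, 65.9, 47.7 and 53.6 FPKM in WT_116, WT_213, KO_214 and KO_218. The 6 GABAergic lineage markers summed to 12.8 to 17.3 FPKM in control and 4.25 to 6.59 FPKM in Med23 CKO, without overlap. Most of the sum came from Gad1, and 2 of the 6 were at 0 in some library. Taken singly, Gad1 and Dlx2 did not overlap between groups, while Gad2, Dlx1, Dlx5 and Dlx6 did. Of all genes tested, 1.53% had every Med23 CKO value below every control value. The part of these cell types in the levels of the 9 genes was not tested.

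**Figure D3:**
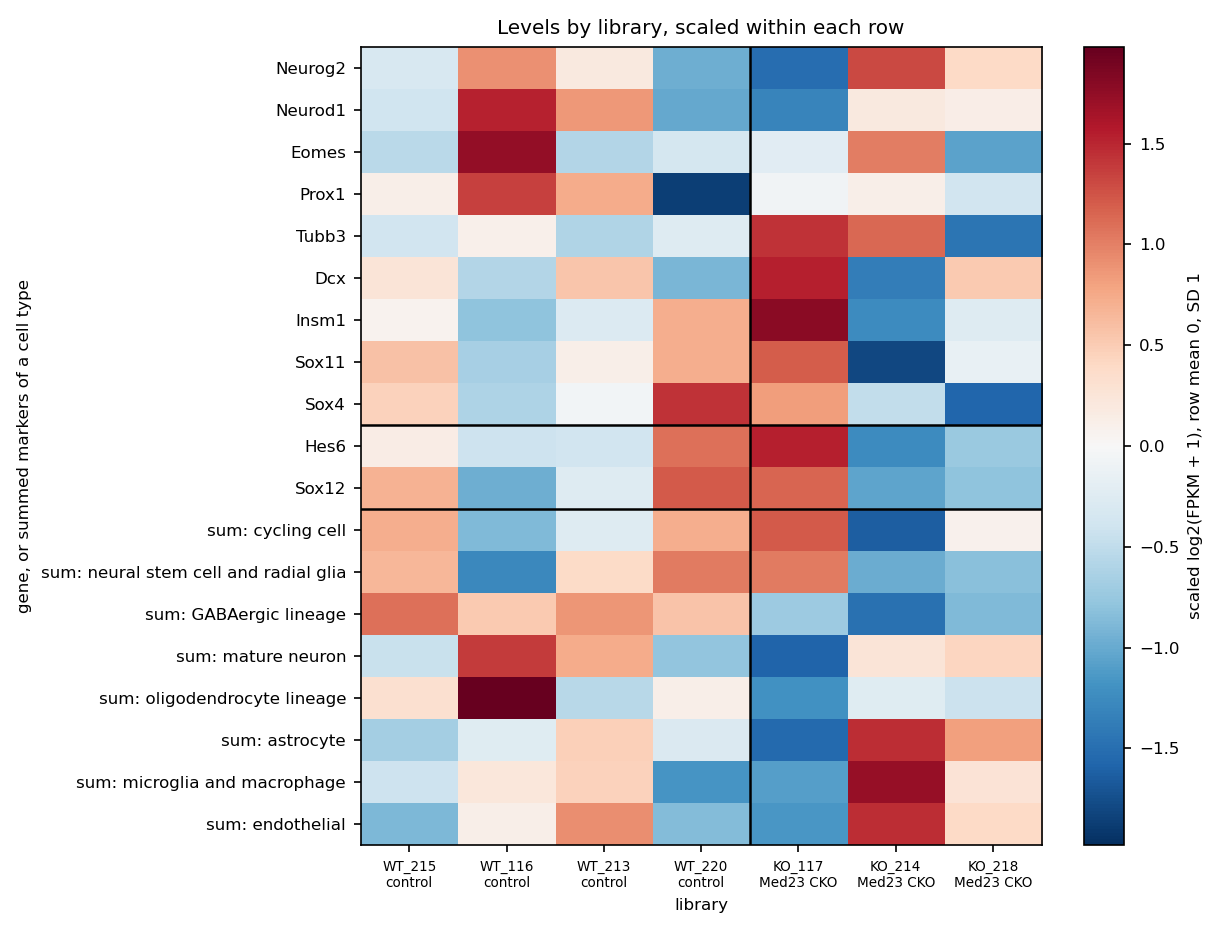
log2(FPKM + 1) in the 7 libraries (columns, control left of the vertical line), scaled to mean 0 and SD 1 within each row. Rows are the 9 genes, then Hes6 and Sox12, then the summed FPKM of marker genes of 8 cell types. Sox11, Sox4, Insm1, Hes6 and Sox12 are highest in WT_215, WT_220 and KO_117, and Neurod1 and Neurog2 are lowest there.

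Likeness of profiles over the 7 libraries was described by Pearson's r on log2(FPKM + 1), with no test. Sox11 was nearest to Fndc1 (r = 0.998), Nsg2 (0.998) and Adam12 (0.997). Sox4 was nearest to Ppp5c (0.995), Gtpbp6 (0.994) and Ccdc57 (0.994), and Insm1 to Sdad1 (0.996), Skida1 (0.988) and Med10 (0.986). Neurod1 was nearest to Kcnc2 (0.994), Tspan15 (0.990) and Tma7 (0.986), and Prox1 to Gm6644 (0.993), Rab3gap2 (0.991) and Sbno1 (0.975). Dcx was nearest to Pdcl3, Fbxo3 (both 0.982) and Apc (0.981), and Tubb3 to Hdlbp (0.982), Trappc9 (0.968) and Tm2d2 (0.962). The mean of the 7 scaled profiles was nearest to Pcgf3 (0.966), Tvp23a (0.963) and Depdc5 (0.960). High values of r were common for genes that followed the split of the libraries, with 1046 genes above 0.9 for Sox11 and 1291 for Sox4, against 37 for Tubb3 and 72 for Prox1.

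Among 12 other proneural and neuronal bHLH factors, 8 were below the filter, and of the 4 tested 2 had a higher and 2 a lower mean in Med23 CKO, with 0 at an unadjusted p under 0.05. Hes6, a Hes family member that promotes neuronal differentiation, had the same 3 libraries on top as Sox11, at 50.0, 86.6 and 113 FPKM in WT_215, WT_220 and KO_117 (log2 difference -0.21, standard error 0.57). Nhlh2 and Bhlhe22, bHLH genes of differentiating neurons, had their 3 lowest values there, as Neurod1 did.

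Of 13 E-protein partners, upstream activators and repressors of the cascade, 5 had a higher and 8 a lower mean, with 0 at an unadjusted p under 0.05 and a median log2 difference of -0.05. Those with the smallest p were Hey1, a Notch effector that represses proneural genes (0.29, standard error 0.27), and Sox2, a stem cell factor (-0.39, standard error 0.42). Of 10 other SoxC and zinc-finger factors tested, 2 had a higher and 8 a lower mean, beside 56.2% lower over all genes tested. Their median log2 difference was -0.23, again with 0 at an unadjusted p under 0.05. This median was -0.45 without KO_117, -0.088 without KO_214 and -0.090 without KO_218. Bcl11a, a zinc-finger factor of developing neurons, was the only one whose groups did not overlap, with 1.53, 2.14, 1.28 and 1.05 FPKM in control, against 0.606, 0.936 and 1.03 FPKM in Med23 CKO (log2 difference -0.42, standard error 0.22, exact permutation p = 0.0571). The values of WT_220 and KO_218 were close, and 1.53% of all genes tested had every Med23 CKO value below every control value. Sox12, the third SoxC gene, was highest in the same 3 libraries as Sox4 and Sox11, with 15.3, 22.9 and 21.7 FPKM in WT_215, WT_220 and KO_117 and between 3.54 and 7.03 FPKM in the others.

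Of 17 other microtubule and cytoskeleton genes of immature neurons, 14 had a lower and 3 a higher mean in Med23 CKO. Over all genes tested, 56.2% had a lower mean. The 17 genes had a median log2 difference of -0.41, and 0 had an unadjusted p under 0.05. The median was -0.03 without KO_214 and -0.96 without KO_117, when 4 of the 17 were lower at an unadjusted p under 0.05, where 2.88% of all genes were lower at that p. In all, 11 of the 17 had their 3 highest values in WT_215, WT_220 and KO_117, as did 26.1% of all genes tested. Stmn4, a stathmin, had the smallest p (log2 difference -0.72, standard error 0.44), and Mapt, which encodes tau, the next (-0.34, standard error 0.21). Of 17 other neuroblast and newborn granule neuron genes, 10 had a higher and 7 a lower mean (median 0.05, from -0.12 without KO_117 to 0.11 without KO_214). The one with an unadjusted p under 0.05 was Nrgn, which encodes neurogranin and is better known from mature neurons. It had 30.7, 30.4, 21.9 and 42.8 FPKM in control, against 2.61, 23.6 and 13.2 FPKM in Med23 CKO. The groups overlapped through KO_214 and WT_213, and the log2 difference was -1.55 (standard error 0.61, exact permutation p = 0.0571). The unadjusted limma p, 0.0363 over all libraries, was no longer under 0.05 without WT_215, WT_116, WT_220 or KO_218. Of all genes tested, 0.996% were lower at an unadjusted p under 0.05.

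**Figure D4:**
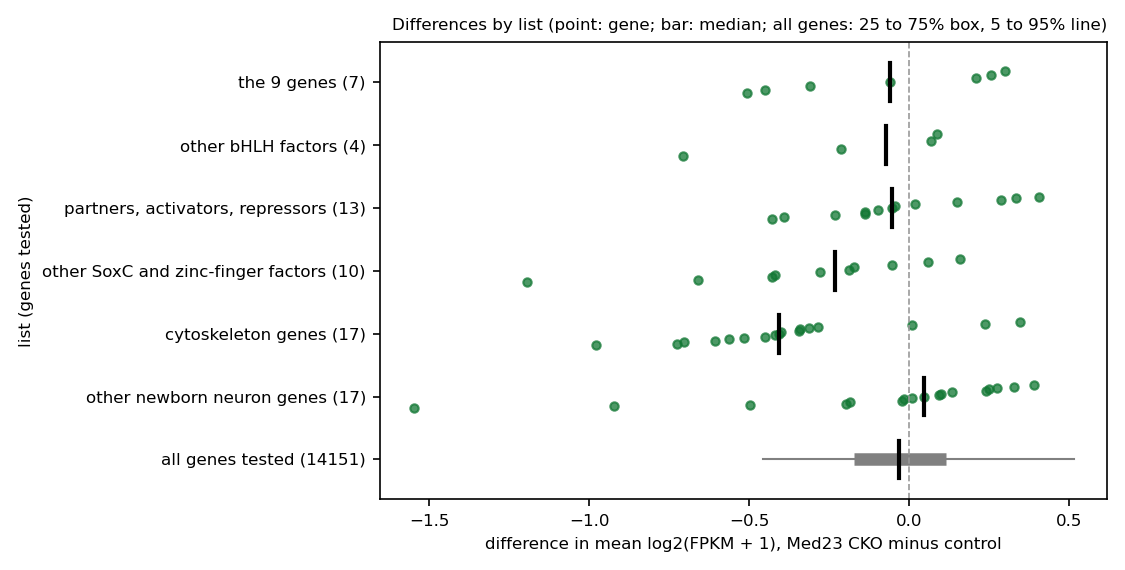
Difference in mean log2(FPKM + 1), Med23 CKO minus control (x axis), by list (y axis, number of genes tested in brackets). Points are genes and black bars medians, and for all genes the box spans 25 to 75% and the line 5 to 95%. The median is -0.41 for the cytoskeleton genes and -0.06 for the 7 of the 9 genes that were tested, beside -0.03 over all genes tested.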

How the data were processed

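RNA of 7 libraries was compared, 4 control and 3 Med23 CKO, each matched to its group and mouse number by its title. The study describes 1 control library fewer than the table holds, without saying which, and all 4 were used. The authors removed adapters, mapped reads with Tophat (genome mm10) and ran Cuffdiff for FPKM per gene, and the deposited table holds these FPKM values per library. Columns with the authors' group means and test results were not used. Low FPKM values fell on no common steps (at most 4.56% of low genes in a bin of 0.05 log2 for any of 21 pairs of libraries), so the depth is unknown and the number of libraries limits the precision.

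Genes whose FPKM averaged 0.5 or more were compared on log2(FPKM + 1) with limma 3.58.1 (R 4.3.3; lmFit, eBayes with trend, two-sided), with Benjamini-Hochberg adjustment over all of them. Single genes were also tested by exact permutation over the 35 splits into 4 and 3, where the smallest p is 0.0286. The p-values measure the spread between mice, each mouse giving 1 library. The fit was tested on simulated data, with the own spread of each gene and with the median spread for every gene. A minimum of recovered genes was set only for the median spread, and Insm1 and Sox11 vary more than that.

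The 9 genes and all lists were chosen with earlier results of these data known, so lists are described by counts and medians and not tested. Besides the 9 genes and Med23, the text names genes of the lists with an unadjusted p under 0.05 or separated groups, otherwise the 2 with the smallest p, the 3 genes most alike to each profile, and cell type markers. Hes6, Nhlh2, Bhlhe22 and Sox12 were also described for their order over libraries, which was chosen after their values were seen, as were the libraries set apart by cycling markers. Promoters and motifs came from RefSeq on GRCm38, with symbols matched for 8 of 9 genes, and gene models from GENCODE M21.

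Alternatives were no filter, a mean FPKM of at least 1, a pseudocount of 0.1, quantile normalization, median centring, limma without trend, robust (statmod 1.5.0) or with array weights, a covariate for the first digit of the mouse numbers, and each library left out in turn. A fit to mice whose number begins with 2 was added after the data were seen.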

Additional observations from a re-analysis of the deposited data

Results flagged for a closer look

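Among the 4 control libraries, Eomes had 0.361 FPKM in WT_116, far from the other 3, which had between 0.0600 and 0.0875 FPKM. On the log2(FPKM + 1) scale the gap to the next library was 0.898 of the whole range, above Dixon's 95% critical value for 4 samples. The other 8 genes were tested in the same way and had no such library, and the 3 Med23 CKO libraries are too few for the test. WT_116 was also the highest control library for Neurog2, Neurod1, Prox1 and Tubb3. It was the lowest control library for Sox11, Sox4 and Insm1. Eomes was below the filter on mean FPKM.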

How the results depend on the processing

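No paired analysis was possible because the labels do not give the litter of each mouse. Of the 7 genes tested, Sox4 alone kept the sign of its difference under every alternative run. The sign turned for Neurod1 (0.18), Dcx (-0.20), Prox1 (0.059) and Insm1 (-1.40) with mice whose number begins with 2, for Tubb3 (-0.25) and Insm1 (-0.092) with array weights, and for Insm1 (-0.15) with a pseudocount of 0.1. With 1 library left out, it turned for Dcx (-0.13) and Insm1 (-1.03) without KO_117, for Sox11 (0.39) without KO_214, for Prox1 (0.064) and Insm1 (-0.11) without WT_116, and for Prox1 (0.0047) without WT_213. The estimation of array weights stopped before it converged. The cause of these changes was not tested. With 1 library left out, differences ranged from -1.03 to 1.28 for Insm1, -1.35 to 0.39 for Sox11, -0.13 to 0.62 for Dcx and -0.25 to 0.064 for Prox1. Array weights gave 1 gene higher and 6 lower, with 1 (Sox4) lower at an unadjusted p under 0.05, and mice whose number begins with 2 gave 2 (Sox11 and Sox4). With 1 library left out, between 1 and 4 of the 7 had a higher mean and between 3 and 6 a lower one, and between 0 and 1 were higher at an unadjusted p under 0.05 (Tubb3 without KO_218) with 0 lower.

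Over all genes, the reported counts at an unadjusted p under 0.05 were 71 higher and 141 lower. The counts were 193 and 887 with array weights, 140 and 201 without a filter, and 476 and 1381 with mice whose number begins with 2. They ranged from 44 to 362 higher and 71 to 410 lower with 1 library left out, where between 0 and 1 genes passed an adjusted p under 0.05. The balance moved to 99 higher and 119 lower with median centring and to 102 and 123 with quantile normalization. Depth is unknown, and with standard errors of 1.05 for Insm1 and 0.78 for Sox11, even differences of several-fold were not detectable.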

Other observations

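The order of Med23 CKO and control libraries for Sox11 and Sox4 was compared within mice that share the first digit of the mouse number, whose meaning the labels do not give. Among the 5 mice whose number begins with 2, all values of Sox11 in Med23 CKO (2.81 and 13.3 FPKM) were below those in control (24.8, 16.9 and 27.7 FPKM), with a log2 difference of -1.68 (standard error 0.56). For Sox4, the Med23 CKO values (61.1 and 37.9 FPKM) were also below those in control (93.0, 74.0 and 143 FPKM), with a log2 difference of -1.03 (standard error 0.35). In that fit, 9.73% of all genes were lower at an unadjusted p under 0.05, and 0 genes passed an adjusted p under 0.05. These mice were chosen after the data were seen. They leave out KO_117, while WT_215 and WT_220, the other libraries highest in cycling markers and in both genes, are control. The order within these mice was thus known from the values already described. Between the 2 mice whose number begins with 1, the order was the opposite for both genes, with 41.5 FPKM of Sox11 in KO_117 and 8.51 FPKM in WT_116, and 109.9 FPKM of Sox4 in KO_117 and 58.1 FPKM in WT_116. Whether the difference between groups changed with the first digit was not tested.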
